A study of Mus musculus with 8 samples.

Results

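The 10 genes described here encode the Fos proteins (Fos, Fosb, Fosl1, Fosl2), the Jun proteins (Jun, Junb, Jund) and 3 zinc finger factors of the Egr family (Egr1, Egr2, Egr3). They were taken by symbol from the deposited expression table. All 10 were found once each, among 55401 genes in the count matrix, and all 10 passed the filter on low counts that left 19535 genes for testing. Bulk libraries were made from livers of wild type C57BL/6J animals: 4 mice fed 3,5-diethoxycarbonyl-1,4-dihydrocollidine (DDC) at 1% of the diet for 4 weeks, a model of cholestasis and biliary fibrosis, and 4 controls fed a standard diet as long. Age and sex are not given in the labels used here. All 8 libraries carry 1 batch label, and none of the labels used here gives the time of day of sampling.

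Fos and Jun proteins pair through leucine zippers to form AP-1, a transcription factor that binds a short palindromic DNA element, while Egr proteins bind GC-rich elements through zinc fingers. Most of these genes are immediate early genes: serum, growth factors, cytokines or stress raise their transcripts within minutes through MAP kinases, without new protein synthesis, and the messages are short-lived. In liver they are known for their induction after partial hepatectomy and injury, and Jun for its role in hepatocyte survival and regeneration.

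Among the 10 genes, Fosb, Fosl1, Egr2 and Egr3 were higher in DDC livers, by 6.41-fold to 17.4-fold, and their DDC libraries lay above every control. The other 6 did not pass the test. For Fos, Egr1, Jun and Junb the 4 controls split, with controls 1 and 3 above all DDC libraries and controls 2 and 4 below all of them. For Fosl2 and Jund the groups overlapped, over 31.3 to 41.3 CPM and 66.8 to 106 CPM in all 8 libraries. Values are CPM, a gene's share of the library's counts on a common depth after scaling by the trimmed mean of M-values (TMM), unless another scale is named, and a gene was called at an adjusted p under 0.05 in edgeR's quasi-likelihood test over all 19535 genes.

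The promoters of 2 called members, Fosb and Egr2, and of 2 uncalled ones, Fos and Jun, are shown for the elements that are textbook sites for the regulators of these genes. The sequences are the 130 bases before a RefSeq transcript start (GRCm38.p6), written 5′ to 3′ on the strand of the gene. Capitals mark matches to the elements described after them, and for Egr2 the start used is 1 of several in RefSeq.
Fosb, chr7:19310046-19310175, minus strand: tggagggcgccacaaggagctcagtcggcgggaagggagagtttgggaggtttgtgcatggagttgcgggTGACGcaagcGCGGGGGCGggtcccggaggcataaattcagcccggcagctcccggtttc
Egr2, chr10:67537739-67537868, plus strand: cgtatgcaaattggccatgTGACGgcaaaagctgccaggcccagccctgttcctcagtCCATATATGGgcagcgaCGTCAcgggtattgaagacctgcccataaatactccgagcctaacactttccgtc
Fos, chr12:85473760-85473889, plus strand: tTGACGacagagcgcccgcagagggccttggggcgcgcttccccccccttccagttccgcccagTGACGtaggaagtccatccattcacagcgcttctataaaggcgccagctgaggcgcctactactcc
Jun, chr4:95052223-95052352, minus strand: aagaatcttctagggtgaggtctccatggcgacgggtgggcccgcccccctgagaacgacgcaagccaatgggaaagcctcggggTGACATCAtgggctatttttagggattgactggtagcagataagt
In these, Fosb carried TGACG, the core of the element bound by CREB and ATF proteins, 60 to 56 bases before the start, and the EGR site GCGGGGGCG 50 to 42 bases before it. Egr2 carried a CArG box, CCATATATGG, the element bound by serum response factor, 72 to 63 bases before the start. It also had TGACG at 111 to 107 and, on the other strand, CGTCA at 55 to 51. Fos carried TGACG at 129 to 125 and at 66 to 62. Jun carried TGACATCA, a variant of the AP-1 and CREB element, at 45 to 38. Among uncalled members not shown, Fosl2 also carried GCGGGGGCG, at 79 to 71, and Junb TGACG, at 106 to 102. A further Egr2 start had the CArG box CCTTTTTTGG at 72 to 63.

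The search covered 250 bases before each start and both strands, in 11 promoters of the 7 members that had an entry. A full CREB element, TGACGTCA, and a full AP-1 element, TGACTCA or TGAGTCA, did not occur in these windows. Over all 32851 promoters in the table these elements occurred in 1.55% and 4.46%. A CArG box occurred in 1.47% of promoters, TGACG or CGTCA in 17.8%, TGACATCA or TGATGTCA in 2.93%, and GCGGGGGCG or GCGTGGGCG in 3.06%. The core TGACG lies inside the full CREB element. The core, the variant and the EGR site were added to the search after the sequences were seen, and a match is a string of letters, not a measured site.

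Fosb encodes a full-length Fos protein and, by splicing, a stable truncated form; the gene lies at chr7:19302696-19310051 in GRCm38. It had 9.12, 6.31, 7.43 and 7.66 CPM in DDC livers 1 to 4, against 1.67, 0.314, 1.28 and 1.18 CPM in controls 1 to 4. Every DDC library exceeded every control, and control 2 was the lowest. The means were 7.63 ± 1.16 CPM in DDC livers and 1.11 ± 0.571 CPM in controls (SD, n = 4 each), a 6.87-fold difference (log2 fold change 2.78, SE 0.41, edgeR adjusted p = 0.000298).

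Fosl1 encodes FRA-1, a Fos protein without the C-terminal activation domain of Fos (chr19:5447547-5455946). It was the scarcest member, with 183, 30, 75 and 39 counts in DDC livers 1 to 4, against 9, 0, 2 and 0 counts in controls 1 to 4. In CPM these were 2.36, 0.355, 0.725 and 0.424 in DDC livers and 0.175, 0, 0.0381 and 0 in controls. The groups did not overlap, but DDC 1 stood well above the other DDC livers. The difference was 17.4-fold (log2 fold change 4.12, SE 1.10, edgeR adjusted p = 0.0102). Without DDC 1 the log2 fold change was 3.17 (adjusted p = 0.0252), and without control 1, which held 9 of the 11 control counts, it was 6.02 (adjusted p = 0.00401). With controls 2 and 3 or controls 3 and 4 left out the call was lost (edgeR adjusted p = 0.0776 and 0.0855). Fosl1 overlaps Ccdc85b on the opposite strand over 2767 bases, and the sources used here do not say whether counting used strand. Ccdc85b had 5.45, 4.98, 6.34 and 6.69 CPM in DDC livers 1 to 4 and 8.42, 8.91, 9.32 and 9.17 CPM in controls 1 to 4. The part of shared reads in the counts of Fosl1 was not tested.

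Egr2 (KROX20) is a zinc finger factor known for hindbrain segmentation, myelination and lymphoid and myeloid activation (chr10:67535475-67542188). It had 8.30, 5.68, 6.96 and 7.34 CPM in DDC livers 1 to 4, against 0.737, 0.274, 0.628 and 0.0826 CPM in controls 1 to 4. The lowest DDC library lay above the highest control. The mean was 7.07 ± 1.08 CPM in DDC livers and 0.431 ± 0.305 CPM in controls (SD, n = 4 each), with a log2 fold change of 4.03 (SE 0.51, edgeR adjusted p = 0.000118). Egr3, a close relative that is induced by antigen receptor and growth factor signals, lies at chr14:70077203-70082614. It had 2.01, 1.59, 1.84 and 2.00 CPM in DDC livers 1 to 4, against 0.291, 0.235, 0.419 and 0.207 CPM in controls 1 to 4. These values did not overlap either, and the mean of 1.86 ± 0.198 CPM in DDC livers stood 6.41-fold above the 0.288 ± 0.0940 CPM in controls (log2 fold change 2.68, SE 0.32, edgeR adjusted p = 6.87e-05).

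**Figure D1:**
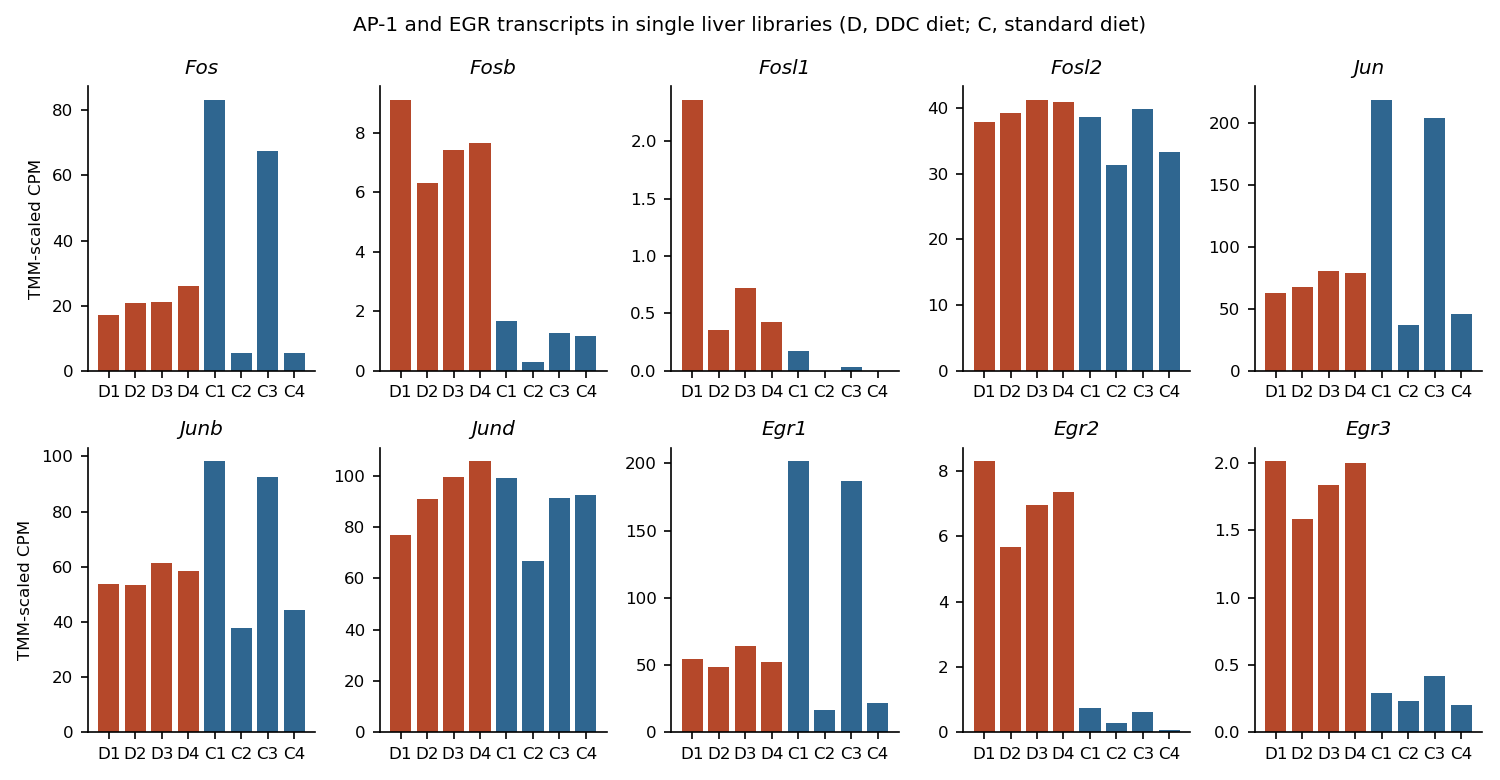
TMM-scaled CPM of each of the 10 genes in single livers, with DDC livers (D1 to D4) left of controls (C1 to C4) and a separate vertical axis from 0 for each gene. Fosb, Fosl1, Egr2 and Egr3 are higher in all 4 DDC livers than in any control, whereas for Fos, Jun, Junb and Egr1 the bars of C1 and C3 rise above the DDC livers and those of C2 and C4 lie below them.

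Fos is the founding member of its family and has no DNA binding of its own without a Jun partner (chr12:85473890-85477273). It had 17.1, 20.95, 21.01 and 25.9 CPM in DDC livers 1 to 4, against 83.3, 5.59, 67.6 and 5.45 CPM in controls 1 to 4. The DDC livers lay between the high controls, 1 and 3, and the low controls, 2 and 4. The group means were 21.3 ± 3.61 CPM in DDC livers and 40.5 ± 40.9 CPM in controls (SD, n = 4 each). The log2 fold change of -0.93 was of the size of its SE of 0.92 and did not pass (edgeR adjusted p = 0.419).

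Jun encodes c-Jun, the AP-1 subunit that is phosphorylated by JNK and that binds DNA as a homodimer or with Fos proteins (chr4:95049034-95052222). It had 63.1, 67.8, 80.3 and 79.2 CPM in DDC livers 1 to 4, against 219, 37.3, 204 and 45.7 CPM in controls 1 to 4. As for Fos, the DDC livers lay between controls 1 and 3 above and controls 2 and 4 below, and the difference did not pass (log2 fold change -0.80, SE 0.61, edgeR adjusted p = 0.296). Jun overlaps the antisense transcript Junos over 689 bases. Junos reached at most 1.09 CPM in a DDC liver and 0.388 CPM in a control, and the part of shared reads was not tested.

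Junb, a Jun protein that can restrain c-Jun and that is prominent in myeloid cells, lies at chr8:84976910-84978718. It had 53.8, 53.3, 61.4 and 58.4 CPM in DDC livers 1 to 4, against 98.3, 37.9, 92.6 and 44.3 CPM in controls 1 to 4. The same controls were high and low, over a narrower range, and the difference did not pass (log2 fold change -0.27, SE 0.31, edgeR adjusted p = 0.487).

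Egr1 is the best known gene of its family and an early transcript of liver regeneration. It had 54.7, 48.5, 64.2 and 52.1 CPM in DDC livers 1 to 4, against 202, 16.3, 187 and 22.2 CPM in controls 1 to 4. Controls 1 and 3 thus lay above every DDC liver and controls 2 and 4 below every one. The means of 54.9 ± 6.74 CPM in DDC livers and 107 ± 101 CPM in controls (SD, n = 4 each) did not differ beyond that spread (log2 fold change -0.96, SE 0.84, edgeR adjusted p = 0.361).

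Fosl2 encodes FRA-2, known in fibrosis from mice that overexpress it (chr5:32135801-32157842). Its CPM were 37.9, 39.3, 41.3 and 40.9 in DDC livers 1 to 4 and 38.6, 31.3, 39.9 and 33.3 in controls 1 to 4. The groups overlapped, and the log2 fold change of 0.16 (SE 0.083) did not pass (edgeR adjusted p = 0.137). Jund, the Jun gene with the steadiest expression in resting cells (chr8:70698949-70700616), had 77.1, 91.0, 99.6 and 106 CPM in DDC livers 1 to 4. Its CPM were 99.2, 66.8, 91.3 and 92.5 in controls 1 to 4. These overlapped as well, with a log2 fold change of 0.094 (SE 0.13, edgeR adjusted p = 0.566). Both genes passed as higher when libraries were scaled by their totals alone (Fosl2 log2 fold change 0.78, adjusted p = 4.1e-05; Jund 0.72, adjusted p = 0.00121), a scaling under which the median of all tested genes moved to 0.70, against 0.073 with TMM. Both also passed as higher on the 2 log2 FPKM scales (Fosl2 0.76 and 0.61, Jund 0.72 and 0.70). On these scales the median of all tested genes was 0.60 and 0.31. Fosl2 passed with upper-quartile scaling too (log2 fold change 0.22, edgeR adjusted p = 0.0447, median of all genes 0.14), and Jund did not (0.16, adjusted p = 0.326). Fosl2 was also called without controls 1 and 3 (0.30, edgeR adjusted p = 0.00901).

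Of the 10 members, 4 were called higher and 0 lower in DDC livers, where 30.2% of all tested genes were called higher and 26.6% lower. By position alone, 4 members had every DDC library above every control and 0 had every one below, beside 26.9% and 25.7% of all tested genes. The share of members called higher is thus near that of the whole transcriptome. The median log2 fold change was 0.12 over the members and 0.073 over all tested genes. In bulk liver, fewer cells of a type and less RNA per cell cannot be told apart.

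**Figure D2:**
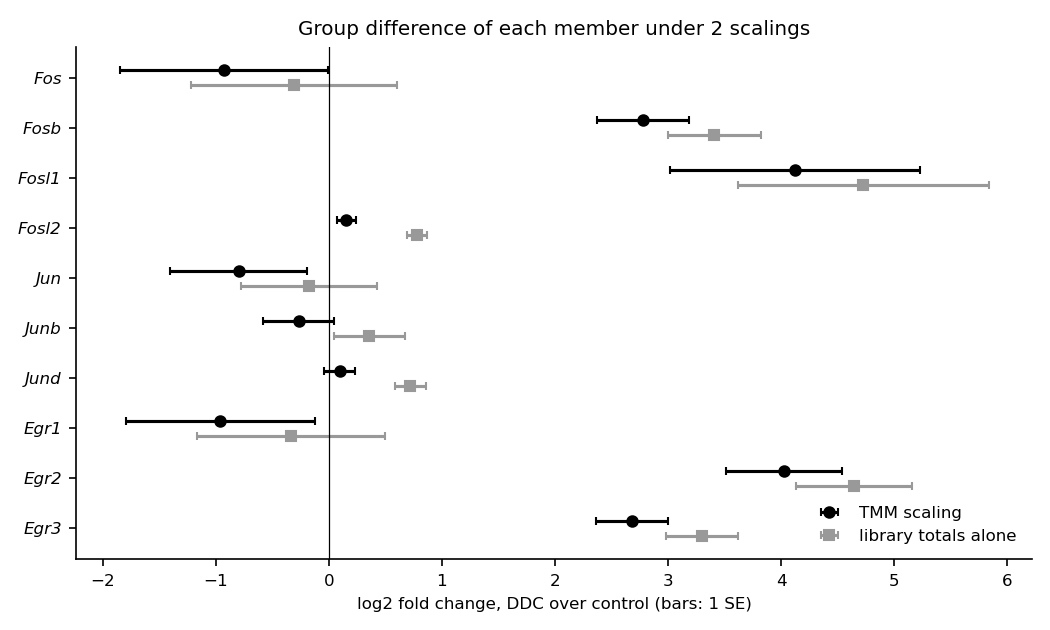
Log2 fold change of each gene, DDC over control, with TMM scaling (black circles) and with library totals alone (grey squares); bars are 1 SE. Fosb, Fosl1, Egr2 and Egr3 lie to the right of 0 under both scalings, from 2.68 to 4.12 with TMM, while the bars of Fos, Jun, Junb and Egr1 are long; the Junb point changes side.

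The width of the control range was measured as the ratio of the highest to the lowest of the 4 libraries of a group. For Fos it was 1.52 among DDC livers and 15.3 among controls. For Egr1 it was 1.32 among DDC livers and 12.4 among controls, and for Jun 1.27 and 5.86 in the same order. Fosb had a ratio of 1.45 among DDC livers and 5.32 among controls, and Junb 1.15 and 2.59. The control ratio of Fosb rested on control 2, with 16 counts against 86, 67 and 57 in controls 1, 3 and 4. Jund (1.37 and 1.49) and Fosl2 (1.09 and 1.27) had the smallest control ratios of these genes.

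Such ranges were uncommon among other genes. Of 14008 genes at 1 CPM or more in controls, the median ratio was 1.32, and 326 genes (2.33%) reached 5-fold. Fos stood at percentile 99.2 of these ratios, Egr1 at 99.0, Jun at 98.0, Fosb at 97.8 and Junb at 93.0, against 66.9 for Jund and 43.2 for Fosl2. Among DDC livers the median ratio was 1.24 over 15034 genes. There Fos stood at percentile 75.8, Fosb at 72.0, Jund at 66.7, Egr1 at 62.3, Jun at 55.9, Junb at 29.9 and Fosl2 at 11.6.

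**Figure D3:**
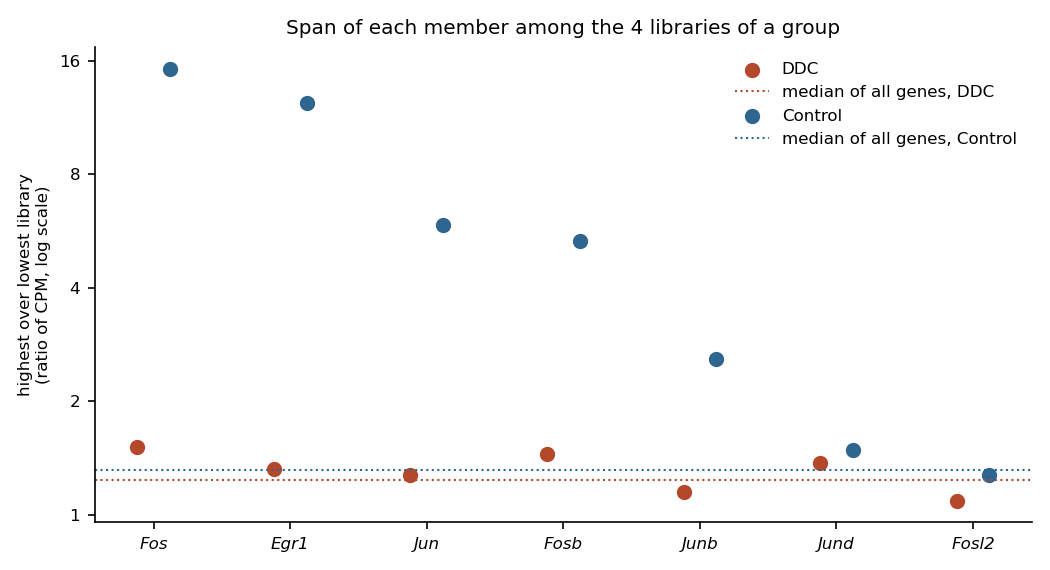
Ratio of the highest to the lowest CPM among the 4 libraries of a group, on a log axis, for the 7 members at 1 CPM or more in both groups; DDC points are left of control points, and dotted lines mark the median of all genes in each group (1.24 in DDC, 1.32 in controls). Fos, Egr1, Jun, Fosb and Junb have a control ratio above 2, up to 15.3 for Fos, and no DDC ratio exceeds 1.52.

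Controls 1 and 3 were the highest pair for 9 of the 10 genes, the exception being Jund with controls 1 and 4. For some of the 9 the margin was narrow or rested on few counts. Fosb had 1.28 CPM in control 3 and 1.18 CPM in control 4. In controls 1 to 4, Egr3 had 15, 12, 22 and 10 counts, and Fosl1 had 9, 0, 2 and 0. Over 14836 genes at 1 CPM or more, 28.2% had controls 1 and 3 highest and 23.1% had controls 2 and 4 highest. Fosl1 lay below that level. Summed over the 10 members, the level was 326, 335, 385 and 379.6 CPM in DDC livers 1 to 4 and 743, 196, 684 and 245 CPM in controls 1 to 4. Controls 1 and 3 also resembled each other across the transcriptome: the mean chi-square per gene was 14.8 for that pair, 71.3 for controls 2 and 4, and 185 to 253 for the other pairs of controls, where sampling noise alone gives about 1. The medians were 3.23, 5.41 and 6.91 to 8.66. By the root mean square difference of log2(CPM + 0.5), controls 1 and 3 were again nearest (0.317). On that measure controls 2 and 4 (0.48) were no nearer than controls 3 and 4 (0.468).

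The contrast for Fos, Egr1, Jun and Junb turned with the controls used. Each of the 6 pairs of controls was left out in turn and the whole table refitted. Without controls 1 and 3 the log2 fold change was 1.94 for Fos, 1.51 for Egr1, 0.80 for Jun and 0.46 for Junb, and each was called higher (edgeR adjusted p = 0.000125, 0.000318, 0.00234 and 0.00612). Without controls 2 and 4 it was -1.84, -1.83, -1.55 and -0.76, and each was called lower (edgeR adjusted p = 6.64e-05, 6.54e-06, 1.3e-05 and 8.47e-05). For these 4 genes controls 1 and 3 lay above every DDC liver and controls 2 and 4 below. The pair left out therefore set the direction in these 2 fits, and their p-values add no evidence beyond those positions. With any of the other 4 pairs left out, none of these genes was called. Fosb, Egr2 and Egr3 were called higher with each pair left out; Egr2 had its largest log2 fold change, 5.28, without controls 1 and 3, and its smallest, 3.36, without controls 2 and 4.

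**Figure D4:**
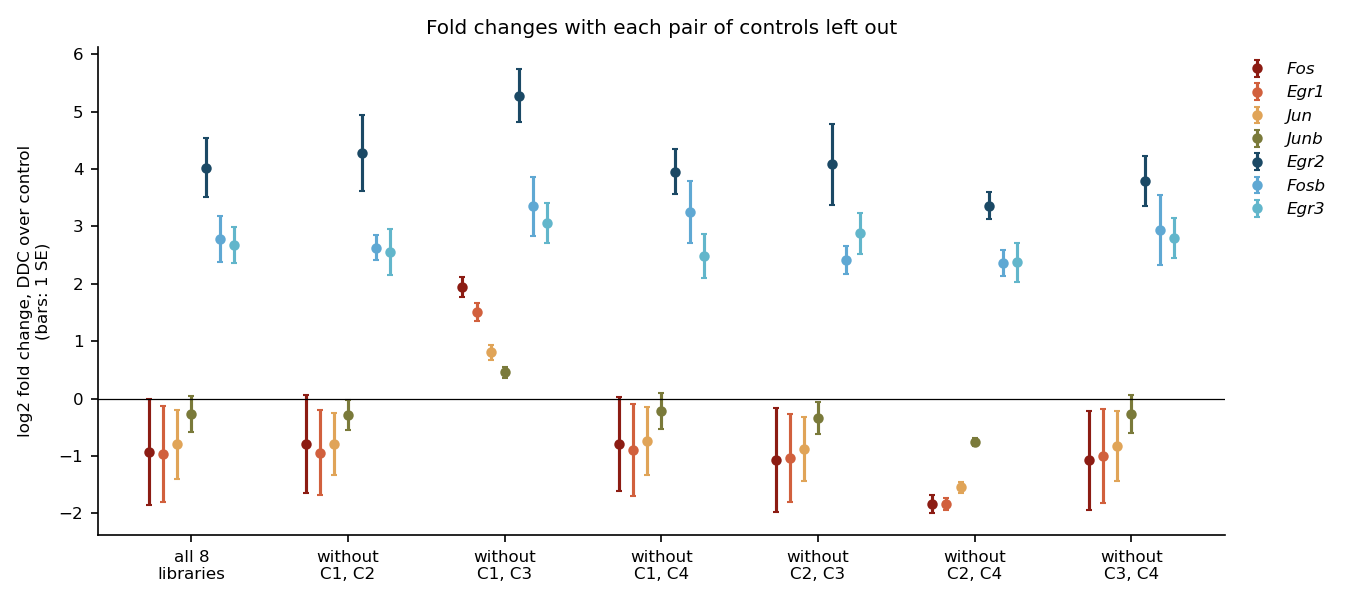
Log2 fold change, DDC over control, of 7 members with all 8 libraries and with each of the 6 pairs of controls (C1 to C4) left out; bars are 1 SE. Fos, Egr1, Jun and Junb lie above 0 without C1 and C3, at 1.94 for Fos, and below 0 in every other fit, whereas Egr2, Fosb and Egr3 stay above 2.

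The make-up of each family was compared per length, as the share of the family's summed FPKM (fragments per kilobase, scaled by the authors to depth). Among the Fos genes, Fos took 52.7%, 63.0%, 60.6% and 66.1% in DDC livers 1 to 4, against 89.1%, 41.9%, 86.9% and 39.0% in controls 1 to 4. Fosl2 took 25.3% to 28.9% in DDC livers, and 10.03%, 57.3%, 12.5% and 57.9% in controls 1 to 4, so it was the leading Fos gene in controls 2 and 4. Fosb took 7.12% to 10.6% in DDC livers and 0.598% to 3.12% in controls, and these ranges did not overlap. Fosl1 took 8.37%, 1.22%, 2.39% and 1.22% in DDC livers 1 to 4, and 0% to 0.190% in controls.

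Among the Jun genes, Jund led in every DDC liver with 48.3% to 52.6%, and it also led in controls 2 and 4 with 55.1% and 58.8%. In controls 1 and 3, Jun led with 37.6% in each. In FPKM, Jund averaged 66.9 ± 10.04 in DDC livers and 40.8 ± 6.34 in controls (SD, n = 4 each), on the authors' scale, which has no TMM factor. Junb held a steady share, 26.8% to 31.1% in DDC livers and 26.0% to 30.2% in controls.

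Egr1 was the leading Egr gene in all 8 livers, with 80.9% to 85.4% of the family in DDC livers and 96.5% to 99.4% in controls. Egr2 took 12.2% to 16.1% in DDC livers and 0.436% to 2.11% in controls, and Egr3 2.47% to 3.17% in DDC livers and 0.142% to 1.40% in controls. None of these ranges overlapped between the groups, so the Egr family was spread over more genes in each DDC liver than in any control.

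**Figure D5:**
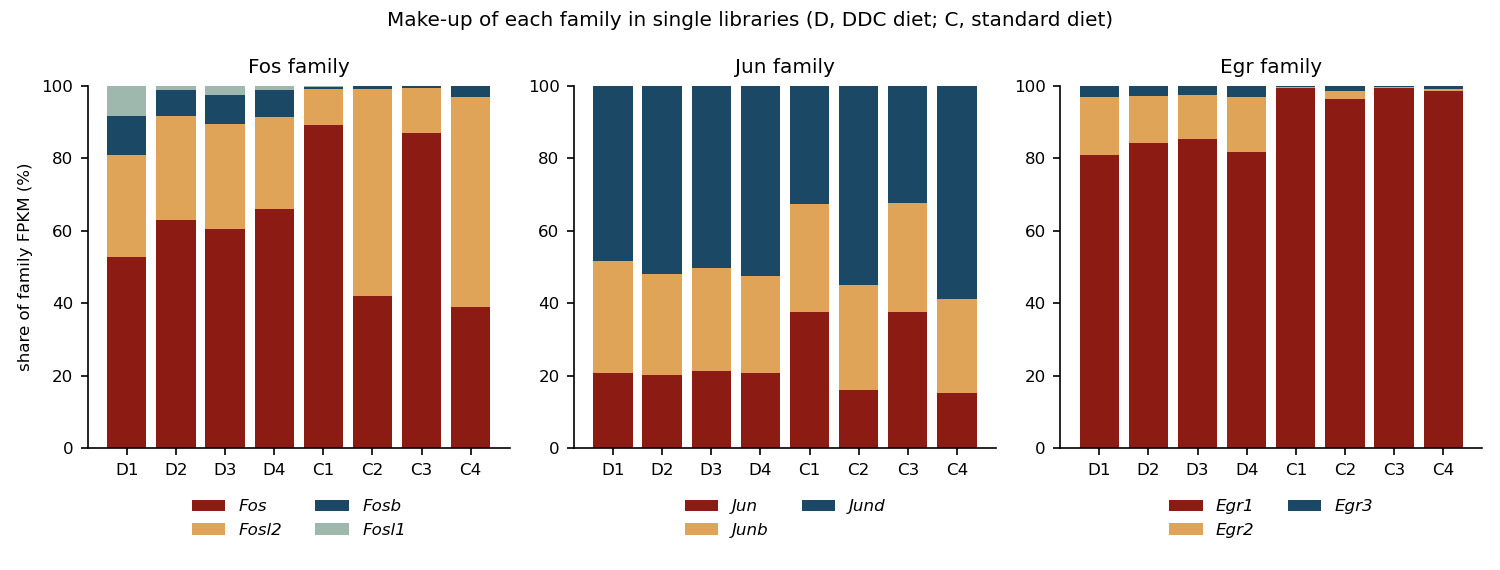
Share of each family's summed FPKM taken by its members, in single livers, DDC (D1 to D4) left of controls (C1 to C4). The leading gene of each family is the same in all DDC livers, with Fos at 52.7% to 66.1% of the Fos genes. Fosl1 is at 8.37% in D1 but at 1.22% to 2.39% in D2 to D4. Among controls, Fos is at 89.1% and 86.9% in C1 and C3 but at 41.9% and 39.0% in C2 and C4.

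Between controls, levels of Fos, Egr1 and Jun moved together, although not in a fixed ratio. Among DDC livers Egr1 did not follow Fos: Fos was highest in DDC 4 (25.9 CPM), and Egr1 in DDC 3 (64.2 CPM, against 52.1 CPM in DDC 4). The count of Egr1 was 3.20, 2.32, 3.06 and 2.01 times that of Fos in DDC livers 1 to 4 and 2.42, 2.92, 2.77 and 4.06 times in controls 1 to 4. The count of Jun was 3.06 to 3.82 times that of Fos in DDC livers. In controls 1 to 4 it was 2.63, 6.68, 3.01 and 8.38 times, so Jun differed less than Fos between the controls.

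The genes nearest in pattern were ranked among 13474 by the root mean square difference of log2(CPM + 0.5) over the 8 libraries, each gene centred on its own mean. Nearest to Fos were Egr1 (0.273), Chrna4 (0.350), Fasn (0.481), Jun (0.518) and Slc22a26 (0.586). Egr1 had Fos, Chrna4 (0.337), Jun (0.378), Fasn (0.496) and Cyp2a22 (0.529). Jun had Chrna4 (0.308), Rad51b (0.341), Igkv9-120 (0.344), Fasn (0.361) and Egr1. Fasn, fatty acid synthase, is no immediate early gene; its CPM were 387, 560.3, 471 and 547 in DDC livers 1 to 4 and 1101, 249.7, 997 and 157 in controls 1 to 4. Egr2 had other neighbours, namely Ccdc120 (0.205), Col3a1 (0.208), Ptafr, Clec4d (0.216 each) and Ccnd1 (0.217), and Fosl2, whose level hardly varied, had Srp14, Brf1, Esf1, Hdac2 and Zfp330 (0.0406 to 0.0534).

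Members need partners and corepressors. Of 15 such genes, 14 were tested, 6 were higher and 6 lower in DDC livers, beside 30.2% and 26.6% of all tested genes. Atf3, a stress-induced bZIP protein that pairs with Jun proteins, had 14.0, 21.4, 22.8 and 22.4 CPM in DDC livers 1 to 4, against 4.68, 3.59, 4.41 and 3.61 CPM in controls 1 to 4. Its groups were apart and controls 1 and 3 stood only slightly above the others (log2 fold change 2.31, SE 0.17, edgeR adjusted p = 3.35e-06). Jdp2, a Jun dimerization protein, was also higher (log2 fold change 2.00, adjusted p = 5.15e-05), as were Batf2 and Batf, bZIP partners of Jun proteins in immune cells (2.33 and 2.45). The call for Batf rested on at most 1.57 CPM per library and was lost without control 1, without DDC 2, without controls 1 and 3 and with the replicate block (edgeR adjusted p = 0.0626, 0.0577, 0.129 and 0.061).

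Of 41 other immediate early and rapid feedback genes, 15 were higher and 11 lower in DDC livers. Over all tested genes these shares were 30.2% and 26.6%. Rgs1, a regulator of G protein signalling in leukocytes, had the largest log2 fold change (2.80), followed by Ier5l (2.50), Dusp2, a MAP kinase phosphatase (2.47), and Ier3 (2.04), while Plk3, a stress kinase, was lower (-2.00). Controls 1 and 3 were the highest pair for 18 of the 41 (43.9%). Nr4a1, an orphan nuclear receptor singled out after its values were seen, had 20.7, 21.7, 20.1 and 22.1 CPM in DDC livers 1 to 4 and 175, 14.2, 163 and 22.7 CPM in controls 1 to 4. Controls 1 and 3 lay far above every DDC liver, control 2 below every one and control 4 just above them, and the gene was not called (edgeR adjusted p = 0.0644). Myc, also chosen after its values were seen, ran otherwise, with 26.4 to 31.3 CPM in DDC livers and 6.02, 35.7, 5.48 and 7.33 CPM in controls 1 to 4.

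Upstream of the members, 21 MAP kinases, their kinases and serum response or ternary complex factors were tested. Of these, 5 were higher and 11 lower in DDC livers (median log2 fold change -0.24), beside 30.2% and 26.6% of all tested genes. Map2k6, an activator of p38, and Map3k5, a stress kinase also called ASK1, were lower (log2 fold change -1.61 and -1.50). Elk3, a ternary complex factor, and Map3k8, a kinase of the macrophage response to Toll-like receptors, were higher (1.41 and 1.05). Transcript levels do not show kinase activity.

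Among 16 textbook target genes of AP-1, 14 were tested. In DDC livers 12 were higher and 1 was lower (median log2 fold change 3.13), beside 30.2% and 26.6% of all tested genes. Sprr1a, a cornified envelope protein, had the largest (6.68), then Mmp12, a macrophage elastase (6.37), Mmp13, a collagenase (4.37), and Timp1, an inhibitor of such proteases (4.08). Vegfa was lower (-0.82), a call lost with library totals alone (edgeR adjusted p = 0.058) and on both log2 FPKM scales (limma adjusted p = 0.0518 and 0.0524). Among 9 textbook targets of EGR1, 8 were higher and 1 was lower (median 2.73), with log2 fold changes of 4.18 for Cxcl2, 4.17 for Tnf and 2.79 for Pdgfb. These genes have many regulators besides AP-1 and EGR1, and macrophages express several of them.

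Other transcripts also differed between controls 1 and 3 and controls 2 and 4. Controls 1 and 3 were the highest pair for 9 of 10 heat shock genes. Of the 10, 9 were lower in DDC livers, beside 26.6% of all tested genes. Hspa1b, an inducible chaperone whose reads may be shared with its near copy Hspa1a, had 15.0, 11.6, 12.1 and 11.3 CPM in DDC livers 1 to 4 and 243, 57.6, 282 and 108 CPM in controls 1 to 4. Of 15 clock genes, 10 had controls 2 and 4 highest and 5 had controls 1 and 3 highest. Dbp, an output gene of the clock, had 13.9, 27.1, 28.2 and 26.4 CPM in DDC livers 1 to 4 and 44.4, 83.5, 45.7 and 92.9 CPM in controls 1 to 4. The part of these differences in the split of Fos, Egr1, Jun and Junb was not tested.

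Markers of other cell types moved with the groups. Over all tested genes, 30.2% were called higher and 26.6% lower in DDC livers. The liver label fitted the hepatocyte markers, 6 of 6 of which were lower in DDC livers, with a summed level of 55260 to 70290 CPM in DDC livers and 133000 to 160200 CPM in controls. Macrophage and monocyte markers were higher in 8 of 8 cases, with 1263 to 1320 CPM in DDC livers and 221 to 276 CPM in controls. Neutrophil markers were higher in 5 of 6 cases, cholangiocyte markers in 4 of 5, and stellate cell and fibroblast markers in 3 of 6. Of 9 lymphoid markers 3 were higher and 3 lower, endothelial markers were higher in 2 of 5 cases, and 0 of 5 smooth muscle and 0 of 4 tested Schwann cell markers were called. The part of these cells in the higher Fosb, Fosl1, Egr2 and Egr3 was not tested.

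Between controls, the cholangiocyte markers summed to 25.9, 92.7, 21.7 and 14.2 CPM in controls 1 to 4, against 93.2 to 150.2 CPM in DDC livers. The smooth muscle markers summed to 31.4 to 56.4 CPM in DDC livers and to 15.7, 164, 16.9 and 16.4 CPM in controls 1 to 4. Control 2 stood apart in both, whereas Fos, Egr1, Jun and Junb were low in controls 2 and 4 alike. The macrophage sum, 221 to 276 CPM over the controls, did not follow the split, nor did the neutrophil, lymphoid, endothelial and Schwann cell sums. Hepatocyte markers summed to 160200, 144700, 154500 and 133000 CPM in controls 1 to 4, and stellate cell and fibroblast markers to 341, 269, 349 and 309 CPM. These last 2 sums were highest in controls 1 and 3. In control 1, Alb alone held 128200 CPM of the first and Dcn 196 CPM of the second. Marker by marker, Alb and Cps1 were highest in controls 1 and 3, and Ttr and Apoa1 in controls 1 and 4. Hnf4a was highest in controls 3 and 4, and Cyp2e1 in controls 2 and 4. Lrat, Col1a1, Dcn and Reln were highest in controls 1 and 3, Pdgfrb in controls 3 and 4, and Des in controls 2 and 4. The part of cell make-up in the split was not tested.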

How the data were processed

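Liver RNA of 8 mice was sequenced, 4 per group, as polyadenylated, dUTP-marked, paired-read libraries, per the labels' protocols. The deposited counts are whole reads per Ensembl gene with no normalization. The deposited FPKM were computed by the authors per gene length and depth, and the counts listed beside them were identical to the matrix for all shared genes. The submitters' processing notes name cutadapt, FastQC, HISAT2, StringTie and DESeq2, on GRCm38 and mm10; versions, roles and the use of strand are not given in the sources used here. Coordinates are those of the deposited table; 9 of the 10 members had the same coordinates in GENCODE M21, the exception being the end of Junb away from its start site.

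Groups were compared with edgeR 4.0.16 under R 4.3.3, on the counts of all 8 libraries: filterByExpr, TMM, robust quasi-likelihood, group as the only term, two-sided, Benjamini-Hochberg adjustment over 19535 genes. CPM are counts over TMM-scaled totals. Library totals ran from 63312756 to 81664058 in DDC livers and from 61179103 to 64768950 in controls, and TMM factors from 1.21 to 1.27 in DDC livers and from 0.792 to 0.815 in controls. By mean chi-square per gene the most similar libraries of a group, controls 1 and 3, still differed by more than sampling noise (14.8). By root mean square log2 difference DDC 2 and 4 were nearer (0.248, against 0.317 for controls 1 and 3). DDC 1 stood apart from the other DDC livers, at a mean chi-square of 102 to 112, against 17.5 to 25.2 among those. Each library was counted as 1 replicate, and excess over sampling noise alone does not show separate animals. The labels call the samples biological replicates.

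The members and the gene lists were chosen with earlier results of these data known. All members are named; from each of the lists of partners, other early genes, upstream factors, targets, heat shock and clock genes come up to 4 called genes with the largest change at 1 CPM or more, plus the largest one against the list's majority, of which the text gives a part; some of these genes are not reported here. Alternatives were DESeq2 size factors, upper-quartile scaling, library totals, other filters, DESeq2 1.42.0, limma 3.58.1 (voom, and log2 FPKM with pseudocounts of 0.1 and 1), a replicate block, each library left out and each of the 6 control pairs left out. The samples were not treated as paired, since nothing in the labels links those that share a replicate number. The correlation of deviations ran from -0.283 to 0.0346 for same-numbered libraries and from -0.174 to 0.258 for the others. With so few libraries these values cannot exclude a link.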

Additional observations from a re-analysis of the deposited data

How the results depend on the processing

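Fosb, Egr2 and Egr3 were called higher in DDC livers under all 24 alternatives, and Fosl1 under all but the omission of controls 2 and 3 or 3 and 4, apart from a filter of 1 CPM in 4 libraries, which removed it. The number of members called was 4 higher and 0 lower whichever single library was left out (4 to 4 and 0 to 0), while genes called ran from 5039 to 6228 higher and from 4593 to 5532 lower. Without controls 1 and 3, 9 members were called higher, beside 5180 of all 21514 genes tested in that fit. Without controls 2 and 4, 4 members were called lower, beside 5016 of all 21484 genes tested. Scaling by library totals called 11505 genes higher and 1750 lower, with log2(FPKM + 0.1) 11976 and 1826, and with log2(FPKM + 1) 11987 and 1815, against 5893 and 5205 with TMM. The log2 fold change of Fos turned positive with voom (0.018), log2(FPKM + 0.1) (0.64), log2(FPKM + 1) (0.45) and without controls 1 and 3 (1.94). With the replicate block it was 0.0025, and the block kept 4 members higher and 0 lower, with 4810 and 4654 genes. Jun turned positive on both FPKM scales (0.24 and 0.22) and without controls 1 and 3 (0.80), Egr1 likewise (0.45, 0.35 and 1.51), and Junb likewise (0.47, 0.45 and 0.46) and with library totals (0.36). Over the omission of single libraries the log2 fold change of Jund ran from -0.024, without control 2, to 0.16, without DDC 1; it was also negative without controls 2 and 3 (-0.047) and controls 2 and 4 (-0.039). Apart from the pair omissions, the cause of these shifts was not tested. At these depths Fosl1 rests on 11 control counts in all. With 4 livers a group and controls that split 2 and 2, the spread of Fos, Egr1, Jun and Junb limits what a mean shows.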
